A study of Mus musculus with 11 samples.

Results

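The synaptonemal complex and chromosome axis genes are 9 genes of the meiotic chromosome that were taken by name from the 23074 genes counted in mouse testis RNA: Sycp1, Sycp2, Sycp3, Syce1, Syce2, Syce3, Tex12, Hormad1 and Hormad2. The rule used gene names and no measured value, although earlier results of these data were known when the genes and tests were chosen. All 9 were found in the count table by their Ensembl identifier, and all 9 passed the filter on low counts. RNA-Seq was made from decapsulated testes at postnatal day 21 (P21) of 5 wild type mice and 6 Rfx2-/- mice, all on a mixed C57BL/6, 129/Sv and FVB/N background. In Rfx2-/- mice an exon that encodes most of the DNA binding domain of the transcription factor RFX2 was removed in every tissue. In the paper's mixed background line this was done with a ubiquitous ACTB-cre transgene, and a neomycin cassette was kept. The paper also describes a second line, backcrossed to C57BL/6 and without the cassette, and its RNA-Seq methods do not name the line used. Mice at P30 were not analysed here. The comparison asks whether the genes of the synaptonemal complex differ between wild type and Rfx2-/- testes at an age when pachytene spermatocytes are plentiful and round spermatids are few.

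The synaptonemal complex is the protein zipper that holds homologous chromosomes together while they recombine. SYCP2 and SYCP3 build the axis, or lateral element, along each homologue, and SYCP1 forms the transverse filaments that bridge the axes. SYCE1, SYCE2, SYCE3 and TEX12 are part of the central element in which the filaments meet. HORMAD1 and HORMAD2 mark axes that are not yet synapsed and come off as synapsis proceeds. The complex begins to form before the pachytene stage, and RFX2 protein is found in pachytene spermatocytes and early round spermatids.

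The libraries held 22232097 to 29769483 counts on genes. The members were measured at between 907 and 31235 counts in a library. Wild type mice 3 and 5 stood apart from the other libraries, with the lowest summed levels of pachytene spermatocyte markers, and values without them are given beside the results that they move most. Counts over the whole Rfx2 gene do not show the deleted exon: Rfx2 was at 191 to 472 CPM (counts in 1000000 counts, scaled between libraries by the TMM method) in wild type mice and at 282 to 324 CPM in Rfx2-/- mice, with a log2 fold change of -0.10 and an adjusted p of 0.714 (edgeR). Wild type mice 3 and 5 had the lowest Rfx2 values, and without them the log2 fold change was -0.41 (adjusted p = 0.0122). Since the deleted exon is not counted apart, this gene is no check of the labels.

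Promoter sequences of all 9 members were present in the RefSeq table of 300-base windows on GRCm38.p6, which run from 250 bases before to 50 bases after a transcript's start. The 9 genes had 12 such windows, since Hormad1, Syce2 and Syce3 each have a pair of starts. Of the members, Syce3 was the one gene on the study's list of genes with an RFX2 ChIP-Seq peak at the promoter, a list that holds 6.02% of the 15745 genes tested here. The window of its inner start is printed because it also holds the letters GTTGCC, an arm of the X box that RFX factors bind, beginning 6 bases before the start, and the letters TAACGG of a MYB motif beginning 28 bases before it. It lies at chr15:89410214-89410513 on the minus strand, and the capitals mark these matches.
Syce3: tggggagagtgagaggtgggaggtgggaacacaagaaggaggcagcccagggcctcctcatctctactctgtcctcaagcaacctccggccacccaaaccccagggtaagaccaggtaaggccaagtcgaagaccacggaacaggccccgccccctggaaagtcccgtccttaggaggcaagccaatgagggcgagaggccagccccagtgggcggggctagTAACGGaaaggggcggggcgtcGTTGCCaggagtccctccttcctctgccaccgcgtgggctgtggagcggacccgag

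The promoters of the 2 members with opposite patterns over mice, Syce1 and Syce2, follow, with those of Sycp3 and Hormad1, which deviated together over mice. They lie at chr7:140787805-140788104 (minus strand), chr8:84872008-84872307 (plus strand), chr10:88459337-88459636 (plus strand) and chr3:95559427-95559726 (plus strand). Capitals mark matches on either strand to the MYB motif TAACNG, the E2F motif GCGGGAA, the E-box CACGTG and the STRA8 motif CNCCTCAG, where N is any base.
Syce1: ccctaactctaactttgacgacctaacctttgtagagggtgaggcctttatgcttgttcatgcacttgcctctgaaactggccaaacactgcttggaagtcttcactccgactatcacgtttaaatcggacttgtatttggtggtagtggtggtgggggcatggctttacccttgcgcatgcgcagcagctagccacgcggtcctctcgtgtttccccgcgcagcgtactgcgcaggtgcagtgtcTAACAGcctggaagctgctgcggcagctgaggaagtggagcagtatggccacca
Syce2: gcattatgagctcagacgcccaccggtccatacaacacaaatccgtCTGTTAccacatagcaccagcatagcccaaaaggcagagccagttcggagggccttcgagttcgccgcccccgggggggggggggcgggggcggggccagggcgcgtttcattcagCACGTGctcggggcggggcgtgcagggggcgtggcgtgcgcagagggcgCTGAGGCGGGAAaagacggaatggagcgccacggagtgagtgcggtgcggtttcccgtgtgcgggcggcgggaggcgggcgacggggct
Sycp3: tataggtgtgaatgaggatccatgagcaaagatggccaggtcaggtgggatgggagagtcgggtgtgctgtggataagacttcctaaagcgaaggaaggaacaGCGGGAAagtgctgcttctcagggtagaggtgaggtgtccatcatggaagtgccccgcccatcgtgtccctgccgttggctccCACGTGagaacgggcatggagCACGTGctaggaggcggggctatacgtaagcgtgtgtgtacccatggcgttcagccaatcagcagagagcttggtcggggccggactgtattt
Hormad1: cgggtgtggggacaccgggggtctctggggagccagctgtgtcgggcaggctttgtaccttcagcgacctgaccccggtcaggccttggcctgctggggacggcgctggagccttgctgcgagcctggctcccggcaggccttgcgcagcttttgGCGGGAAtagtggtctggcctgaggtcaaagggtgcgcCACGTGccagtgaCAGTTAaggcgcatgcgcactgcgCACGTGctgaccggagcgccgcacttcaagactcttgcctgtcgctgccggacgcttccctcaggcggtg

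Hormad1, Syce2, Sycp3 and Tex12 held both an E2F match and an E-box, and Sycp1 held an E-box alone. By gene, the E2F letters were in 4 of 9 members against 5.29% of the 27025 genes with a promoter window, and the E-box was in 5 of 9 against 8.09%. In the Syce2 window the E2F match overlaps the STRA8 match, which 4 of 9 members held (Hormad2, Syce2, Sycp1 and Tex12) against 9.12% of genes. MYB letters were in 6 of 9 members, against 25.9% of genes, and those in the Syce1 window span its start. The X box arm GTTGCC was in Syce3 alone, against 14.1% of genes, and neither the whole X box, with both of its arms (0.529% of genes), nor the cyclic AMP element TGACGTCA (2.03% of genes) was matched in any member. The members' windows had a median GC content of 61.2%, against 52.7% over all 32851 windows. These matches describe letters in a window and do not show binding.

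No member passed the test for a difference between genotypes. At an adjusted p of at most 0.01, which was used to call a gene, edgeR's quasi-likelihood test called 0 of 9 members, beside 2.67% of the 15745 genes tested (1.94% lower and 0.73% higher in Rfx2-/- testes). DESeq2, which called 13.1% of all genes, and limma's voom, which called 6.66%, also called 0 of 9. At an adjusted p of at most 0.05 edgeR also called 0 of 9, beside 8.78% of genes lower and 6.15% higher. Syce1 passed that limit in DESeq2 (adjusted p = 0.0113) and voom (adjusted p = 0.0271), and Sycp2 in DESeq2 (adjusted p = 0.0145). The shares of all genes at that limit in DESeq2 and voom are not given here. They cannot be below the 13.1% and 6.66% called at 0.01. At an unadjusted p of at most 0.05, 2 of 9 members passed in edgeR, beside 41.8% of all genes tested, and 3 of 9 passed in DESeq2 (44.3% of all genes) and in voom (39% of all genes). The wild type and Rfx2-/- ranges overlapped for all 9 members, while they did not overlap for 11.7% of genes, with every Rfx2-/- mouse above every wild type mouse for 6.5%. The members' median log2 fold change was 0.01 against -0.05 over all genes, with 5 members above 0 and 4 below. Scaling by total counts, which moved the median of all genes to -0.22, gave a median of -0.15 for the members, with 7 below 0.

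**Figure D1:**
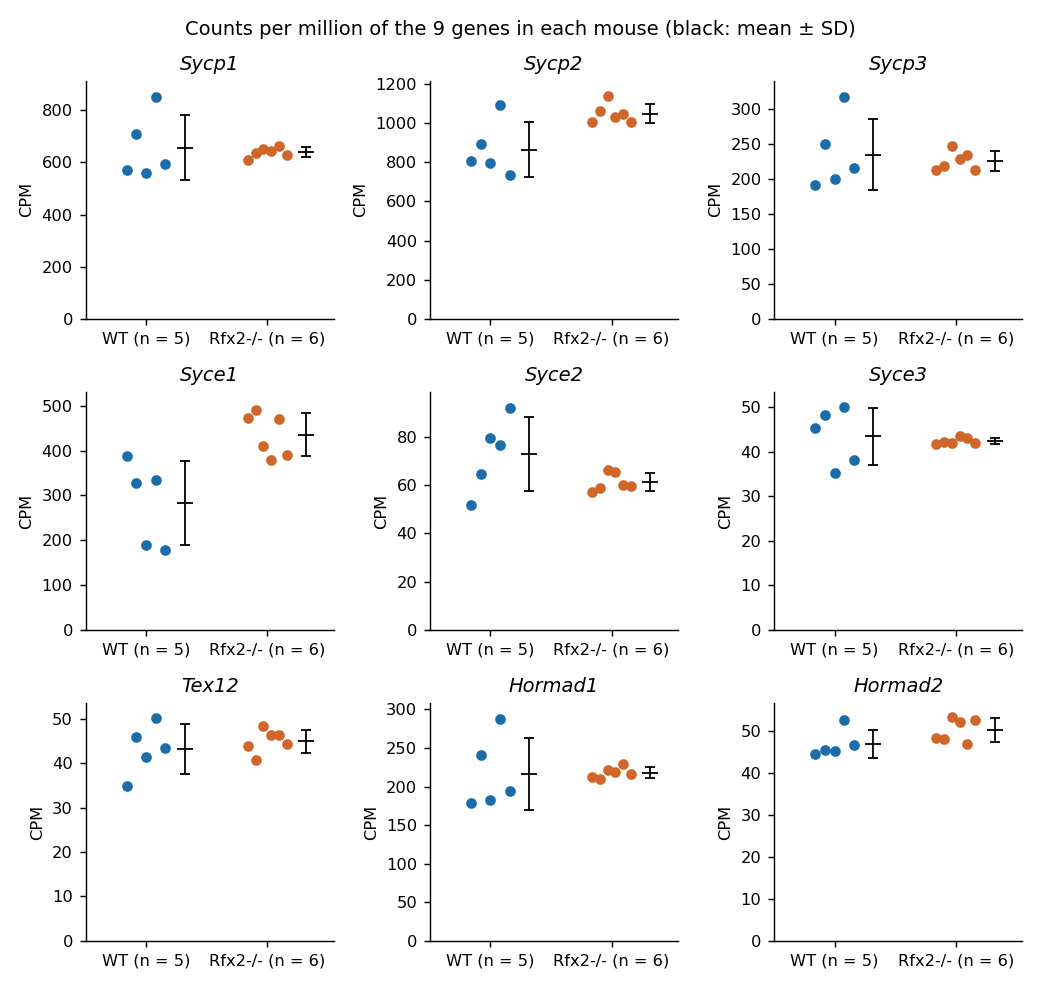
CPM of each gene (vertical axis, starting at 0) in each of 5 wild type and 6 Rfx2-/- mice, 1 point per mouse, with the mean and SD in black. The ranges overlap in every panel, the wild type mice are more scattered than the Rfx2-/- mice, and 5 of 6 Rfx2-/- mice lie above all wild type mice for Syce1.

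Sycp1 (ENSMUSG00000027855, chromosome 3 from 102818499 to 102936100, minus strand), the transverse filament, was at 572, 711, 558, 853 and 593 CPM in wild type mice 1 to 5. In Rfx2-/- mice 6 to 11 it was at 608, 637, 653, 643, 665 and 630 CPM. All 6 Rfx2-/- mice lay within the wild type range, and wild type mouse 4 was the highest of all. The means were 658 ± 125 CPM (SD, n = 5) and 639 ± 19.5 CPM (SD, n = 6), with a log2 fold change of -0.04 (SE 0.11, 95% confidence interval -0.29 to 0.21, edgeR adjusted p = 0.790).

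Of the lateral element genes, Sycp3 (ENSMUSG00000020059, chromosome 10 from 88459569 to 88473236, plus strand) was at 192, 249, 199, 317 and 215 CPM in wild type mice and at 212 to 247 CPM in Rfx2-/- mice. All Rfx2-/- values were again inside the wild type range, and the log2 fold change was -0.06 (SE 0.12, 95% confidence interval -0.33 to 0.21, adjusted p = 0.720). Sycp3 shares 660 bases, or 52.2% of its merged exons, with Chpt1 in the GENCODE annotation, so reads over the shared bases may not have been counted for either gene.

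Sycp2 (ENSMUSG00000060445, chromosome 2 from 178345293 to 178407685, minus strand), the other lateral element gene, was at 805, 897, 797, 1095 and 737 CPM in wild type mice. It was at 1007, 1062, 1138, 1033, 1050 and 1007 CPM in Rfx2-/- mice. Apart from wild type mouse 4, every wild type value lay below every Rfx2-/- value. The means were 866 ± 140 CPM (SD, n = 5) and 1049 ± 48.9 CPM (SD, n = 6). The log2 fold change of 0.28 (SE 0.11, 95% confidence interval 0.05 to 0.51) did not pass the test, at an adjusted p of 0.0799, and ranged from 0.12 to 0.38 over the alternatives tried, with adjusted p-values from 0.0145 to 0.275. Without wild type mice 3 and 5 it was 0.18 (adjusted p = 0.275).

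Syce1 (ENSMUSG00000025480, chromosome 7 from 140777229 to 140787852, minus strand), a central element gene, had the largest fold change of the 9 members in this fit. It was at 387, 327, 190, 335 and 178 CPM in wild type mice and at 473, 490, 410, 379, 472 and 390 CPM in Rfx2-/- mice. Wild type mice 3 and 5 were far below the others, and the lowest Rfx2-/- mouse, mouse 9, was below wild type mouse 1. The means were 283 ± 93.8 CPM (SD, n = 5) and 435 ± 48.1 CPM (SD, n = 6), and the log2 fold change was 0.62 (SE 0.20, 95% confidence interval 0.18 to 1.06, adjusted p = 0.0572). Without wild type mice 3 and 5 it was 0.32 (adjusted p = 0.0695), and over all alternatives it lay between 0.32 and 0.76 with adjusted p-values from 0.0113 to 0.114.

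Markers of pachytene spermatocytes moved with Syce1. The summed level of 9 such markers (among them Piwil1, Ldhc and Pgk2, all 9 with a mean above 1 CPM) was 8202, 7234, 3720, 7206 and 3537 CPM in wild type mice 1 to 5 and 7478 to 9744 CPM in Rfx2-/- mice. For each 1000 CPM of these markers, Syce1 was at 47.2, 45.2, 51.0, 46.5 and 50.4 CPM in wild type mice and at 48.6 to 52.2 CPM in Rfx2-/- mice. On this scale the wild type mean was 48.1 ± 2.53 (SD, n = 5) and the Rfx2-/- mean was 50.7 ± 1.35 (SD, n = 6), with overlapping ranges. The other 8 members had lower means in Rfx2-/- than in wild type mice on this scale, with overlapping ranges. Sycp1 was at 121 ± 39.3 in wild type (SD, n = 5) and 75.1 ± 7.98 in Rfx2-/- mice (SD, n = 6), Sycp3 at 43.3 ± 14.9 and 26.5 ± 3.44, and Syce2 at 14.7 ± 8.55 and 7.23 ± 1.07. Wild type mice 3 and 5, with the lowest marker sums, had the highest values of each of these 8 members. In wild type mice 1, 2 and 4, Sycp1 was at 69.7, 98.2 and 118, against 65.3 to 85.9 in Rfx2-/- mice. Syce2 was at 6.31, 8.94 and 10.6 in the same wild type mice, against 6.05 to 8.75 in Rfx2-/- mice. The genotype differences on this scale were not tested. Of the 9 markers edgeR called 0 at an adjusted p of at most 0.01, beside 2.67% of all genes tested. At 0.05 it called 0, beside 8.78% of genes lower and 6.15% higher. All 9 had a log2 fold change above 0, as had 45.2% of all genes. Their median was 0.53 (range 0.26 to 1.34), against -0.05 over all genes. In whole testis, fewer cells of a type and less RNA per cell cannot be told apart, and the part of cell composition in the Syce1 values was not tested.

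**Figure D2:**
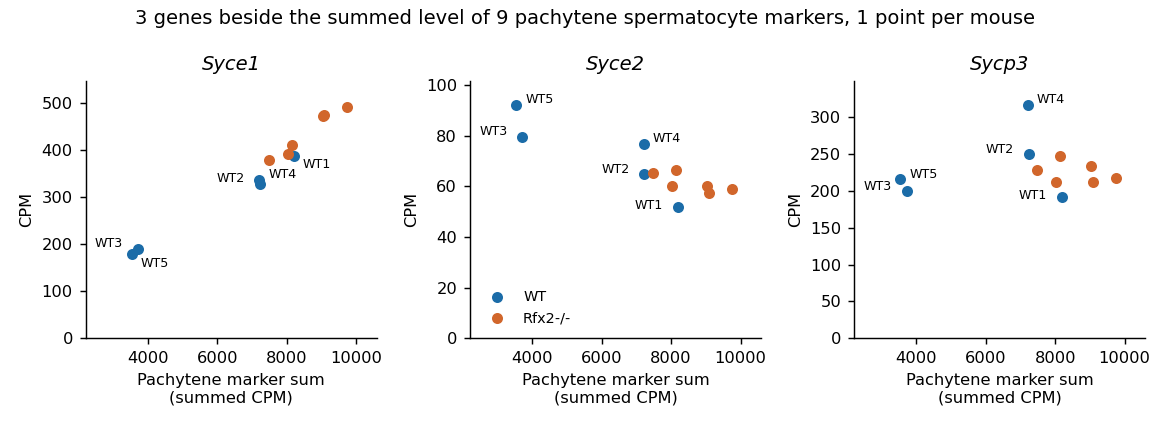
CPM of Syce1, Syce2 and Sycp3 (vertical axes, from 0) against the summed CPM of 9 pachytene spermatocyte markers (horizontal axes), 1 point per mouse, with the wild type mice numbered. Syce1 lies on a line with the marker sum in both genotypes, Syce2 is highest in wild type mice 3 and 5 where the sum is lowest, and Sycp3 is highest in wild type mouse 4.

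Syce2 (ENSMUSG00000003824, chromosome 8 from 84872111 to 84888221, plus strand), whose protein assembles with TEX12 in the central element, was lowest in the wild type mouse with the highest Syce1 (mouse 1) and highest in the one with the lowest (mouse 5). It was at 51.8, 64.6, 79.5, 76.7 and 92.0 CPM in wild type mice 1 to 5 and at 57.3 to 66.3 CPM in Rfx2-/- mice. All 6 Rfx2-/- mice were within the wild type range, and wild type mice 5 and 3 were the highest of all. The means were 72.9 ± 15.3 CPM (SD, n = 5) and 61.3 ± 3.66 CPM (SD, n = 6), and the log2 fold change was -0.25 (SE 0.12, 95% confidence interval -0.52 to 0.02, adjusted p = 0.143). Without wild type mice 3 and 5 it was -0.06 (adjusted p = 0.793). Summed spermatogonial markers (8 genes) were at 469 and 527 CPM in wild type mice 3 and 5 against 299 to 401 CPM in the other 9 mice, and summed Sertoli cell markers (9 genes) at 1599 and 1736 CPM against 1111 to 1479 CPM, and their part in the Syce2 values was not tested.

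Syce3 (ENSMUSG00000078938, chromosome 15 from 89390174 to 89410503, minus strand), the central element gene on the RFX2 peak list, was at 45.3, 48.4, 35.2, 50.1 and 38.3 CPM in wild type mice. In Rfx2-/- mice it lay between 41.7 and 43.5 CPM, a range inside that of the wild type mice. The log2 fold change was -0.04 (SE 0.09, 95% confidence interval -0.23 to 0.16, adjusted p = 0.769). Tex12 (ENSMUSG00000032065, chromosome 9 from 50556819 to 50561325, minus strand), the partner of Syce2, was at 34.8 to 50.1 CPM in wild type mice and at 40.8 to 48.3 CPM in Rfx2-/- mice, with a log2 fold change of 0.06 (SE 0.09, 95% confidence interval -0.13 to 0.25, adjusted p = 0.608).

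Hormad1 (ENSMUSG00000028109, chromosome 3 from 95559677 to 95587671, plus strand), which is needed for synapsis and for its checkpoint, was at 179, 241, 182, 287 and 194 CPM in wild type mice and at 210 to 229 CPM in Rfx2-/- mice. Its means were 217 ± 46.7 CPM (SD, n = 5) and 218 ± 6.75 CPM (SD, n = 6), and the log2 fold change was 0.01 (SE 0.12, 95% confidence interval -0.25 to 0.27, adjusted p = 0.957). Hormad2 (ENSMUSG00000020419, chromosome 11 from 4345814 to 4441105, minus strand) was at 44.5, 45.3, 45.2, 52.4 and 46.5 CPM in wild type mice and at 46.7 to 53.3 CPM in Rfx2-/- mice. All 6 Rfx2-/- mice lay above the wild type median and 2 above every wild type mouse, with a log2 fold change of 0.10 (SE 0.06, 95% confidence interval -0.04 to 0.23, adjusted p = 0.228). For 8 of the 9 members the 95% interval lay between -0.52 and 0.51, and for Syce1 its upper end was 1.06.

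Per length, Syce1, Sycp1, Sycp3, Sycp2 and Hormad1 were the most abundant members. In CPM per kb of merged exons (a level, not a difference), the wild type means were 194 ± 64.2 for Syce1, 191 ± 36.4 for Sycp1, 186 ± 40.4 for Sycp3, 151 ± 24.4 for Sycp2 and 125 ± 27.0 for Hormad1 (SD, n = 5 each). Each of these genes overlapped the next in its range over wild type mice. Below them, and without overlap with Hormad1, came Syce3 at 78.6 ± 11.7, then Syce2 at 42.8 ± 8.98 and Tex12 at 42.4 ± 5.59, which overlapped each other, and Hormad2 at 21.1 ± 1.45 (SD, n = 5 each).

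In Rfx2-/- testes Syce1, at 298 ± 33.0 CPM per kb (SD, n = 6), lay above every other member in all 6 mice, and Sycp1, Sycp2 and Sycp3 were at 186 ± 5.66, 183 ± 8.51 and 178 ± 11.04 (SD, n = 6 each) with overlapping ranges. The order below them was Hormad1, Syce3, Tex12, Syce2 and Hormad2. The place of Sycp3 depends on the bases that it shares with Chpt1. With those left out of its length, Sycp3 was at 388 ± 84.5 CPM per kb in wild type mice (SD, n = 5) and lay above Syce1 without overlap in both genotypes.

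**Figure D3:**
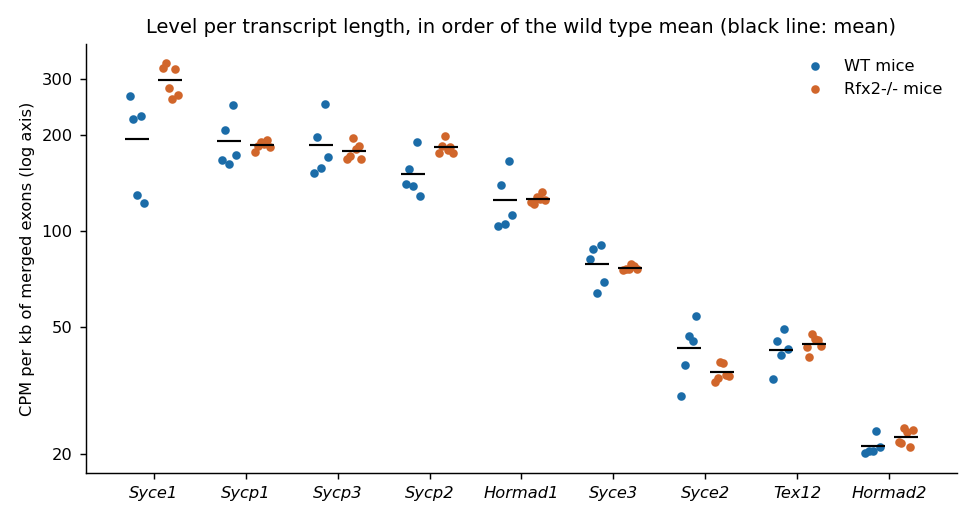
CPM per kb of merged exons (log axis) of each gene in wild type and Rfx2-/- mice, 1 point per mouse and the mean as a black line, ordered by the wild type mean. Syce1, Sycp1, Sycp3, Sycp2 and Hormad1 form the upper group, and Syce1 is the highest gene in all 6 Rfx2-/- mice.

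Within a mouse, the balance between Sycp2 and the other members differed between genotypes. The log2 ratio of Sycp2 to the mean of the other 8 members was 2.82, 2.77, 2.87, 2.86 and 2.67 in wild type mice and 2.99, 3.06, 3.08, 2.99, 2.99 and 2.99 in Rfx2-/- mice. All 6 Rfx2-/- mice lay above all wild type mice, by 0.22 in the means (two-sided exact permutation p = 0.0043, the smallest that 5 against 6 mice can give, or 0.0195 after Benjamini-Hochberg adjustment over the 9 ratios compared). The log2 ratio of Sycp1 to the others was lower in all 6 Rfx2-/- mice than in any wild type mouse, by -0.13 in the means (exact permutation p = 0.0043, adjusted p = 0.0195). These ratios do not depend on the scaling of the libraries, but they do depend on the genes taken as the reference.

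With 10 genes of the axis and cohesin partner list (described below) as the reference, the difference was 0.37 for Sycp2 (exact permutation, adjusted p = 0.117) and 0.06 for Sycp1 (adjusted p = 0.794). With Syce1 and Syce2 left out of the reference, it was 0.27 for Sycp2 (exact permutation, adjusted p = 0.0390) and -0.09 for Sycp1 (adjusted p = 0.0519). Taken directly, Sycp2 was at 1.41, 1.26, 1.43, 1.28 and 1.24 times the CPM of Sycp1 in wild type mice and at 1.65, 1.67, 1.74, 1.61, 1.58 and 1.60 times in Rfx2-/- mice, without overlap. This pair was chosen after its values were seen and was not tested. Without wild type mice 3 and 5 the difference in the log2 ratio to the other 8 members was 0.20 for Sycp2 and -0.16 for Sycp1, each with an exact permutation p of 0.0238, the smallest that 3 against 6 mice can give (adjusted p = 0.0714). For the ratio of Sycp2 to Sycp1, wild type mice 3 and 5, at 1.43 and 1.24, lay at opposite ends of the wild type range.

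The log2 ratio of Syce1 to the others was higher by 0.66 (exact permutation p = 0.0173, adjusted p = 0.0519). The difference was -0.36 for Syce2 (exact permutation p = 0.0433, adjusted p = 0.0649). It was -0.15 for Sycp3 (exact permutation p = 0.0260, adjusted p = 0.0584) and -0.13 for Syce3 (exact permutation p = 0.0390, adjusted p = 0.0649). None of these passed at an adjusted p of at most 0.05. Without wild type mice 3 and 5 the differences were 0.35 for Syce1, -0.066 for Syce2, -0.16 for Sycp3 and -0.20 for Syce3. For Hormad1, Tex12 and Hormad2 the differences were -0.07, -0.03 and 0.00 (exact permutation p = 0.242, 0.636 and 0.944). By contrast with Sycp2, Sycp3 kept overlapping ranges against Sycp1, at 0.34 to 0.37 times its CPM in wild type mice and 0.34 to 0.38 times in Rfx2-/- mice.

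**Figure D4:**
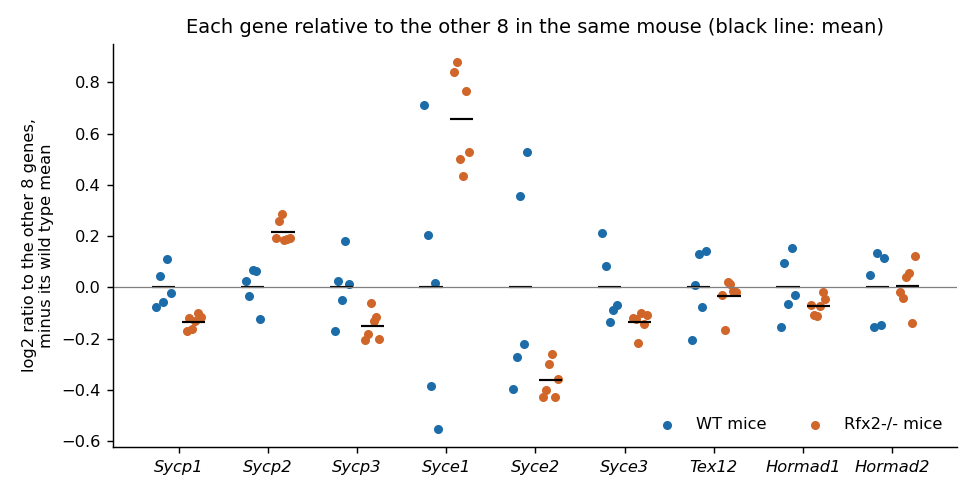
Log2 ratio of each gene to the mean of the other 8 in the same mouse, minus its wild type mean (vertical axis), 1 point per mouse and the group mean as a black line. For Sycp2 all 6 Rfx2-/- mice lie above the 5 wild type mice, and for Sycp1 all 6 lie below them.

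Among mice of the same genotype, Sycp1, Sycp2, Sycp3 and Hormad1 deviated together. Over 11 mice, the deviations of log2 CPM from the genotype mean had a Pearson r of 0.99 between Sycp1 and Hormad1 (Spearman's rho 0.96) and of 0.97 between Sycp1 and Sycp3 (rho 0.96). Among the 6 pairs of these genes r lay between 0.87 and 0.99. The deviations of Sycp1 ran from -0.22 to 0.40 in wild type mice and from -0.071 to 0.057 in Rfx2-/- mice. Its r values thus rest mostly on the wild type mice. Leaving out the 2 mice farthest from the median of Sycp1 (wild type mice 3 and 4) gave r of 0.97 for Sycp1 with Hormad1 and 0.90 for Sycp1 with Sycp3. No test was made of these values, since both genes of a pair come from the same libraries with the same scaling. Of all 15744 other tested genes, Hormad1 was the one most like Sycp1, and Sycp1 the one most like Hormad1. This held for no other member. Among the same number of genes, the most similar member ranked 3 for Sycp3, 44 for Sycp2, 144 for Tex12 and 515 for Hormad2. It ranked 1733 for Syce3, 3678 for Syce1 and 4256 for Syce2.

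Of the central element genes, Tex12 had r = 0.86 with Sycp3 (rho 0.87), and 0.73 without wild type mice 1 and 4. Syce1 and Syce2 had r = -0.82 over 11 mice (rho -0.74), and -0.71 without wild type mice 3 and 5. Syce1 and Syce3 had r = 0.82 (rho 0.75), and 0.55 without wild type mice 3 and 5. Wild type mouse 4 had the highest wild type CPM of 7 of 9 members, all but Syce1 and Syce2, and wild type mouse 1 had the lowest of 5. Over all 36 pairs of members the median r was 0.61, against 0.02 for a member with the other tested genes, and 5 pairs were below 0. Leaving out, for each pair, the 2 mice farthest from the median of its first gene brought the median r to 0.34, and that of Hormad1 with Hormad2 from 0.58 to 0.0029.

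Genes outside the set with the most similar deviations were Emc2 (r = 0.98) and Tex30 (0.97) for Sycp1, Kif20b and Thoc1 (0.98 each) for Sycp2, Eif4e (0.98) and Cenpq (0.97) for Sycp3, and Hsp90b1 (0.98) and Cstf3 (0.97) for Hormad1. For the central element they were Trpd52l3 and Tmem97 for Syce1 (0.998 each), Snx5 (0.99) and Hmgn5 (0.98) for Syce2, Trmo and Macrod2 (0.98 each) for Syce3, and Gm49340 (0.99) and Vapa (0.97) for Tex12. Tnpo3 (0.97) and Efcab14 (0.94) came nearest to Hormad2. Each value is over 11 mice and 15736 genes compared.

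The members varied more among wild type than among Rfx2-/- mice. The coefficient of variation was larger in wild type mice for 9 of 9 members, as it was for 87.9% of the 10274 tested genes with a mean of at least 10 CPM. It was 21.8% in wild type and 6.20% in Rfx2-/- mice for Sycp3, 19.0% and 3.04% for Sycp1, and 14.8% and 1.67% for Syce3. The median of the wild type value over the Rfx2-/- value was 3.51 for the members and 1.91 for all these genes.

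Genes that work beside the synaptonemal complex were taken as 3 lists. The axis and cohesin partners include genes that tie sister chromatids or load the break-forming machinery. The list also holds genes outside these roles, among them Six6os1. Of these partners, 10 of 11 listed genes were tested and 0 were called in edgeR (3 at an unadjusted p of at most 0.05, 1 by DESeq2 and 0 by voom, against the shares of all genes given above for each). The log2 fold change was above 0 for 4 of 10, as for 45.2% of all genes, with a median of -0.11 against -0.05 over all genes. The lowest p-values belonged to meiotic cohesin subunits, Smc1b, at 293 to 349 CPM in wild type and 355 to 445 CPM in Rfx2-/- mice (log2 fold change 0.28, SE 0.08, adjusted p = 0.0390), and Stag3, at 511 to 724 and 719 to 813 CPM (0.28, SE 0.10, adjusted p = 0.0669). For Smc1b the ranges did not overlap, and for Stag3 the lowest Rfx2-/- mouse was just below wild type mouse 1. Leaving out wild type mice 3 and 5 gave 0.34 for Smc1b (adjusted p = 0.0287) and 0.15 for Stag3 (adjusted p = 0.131).

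Of the genes that fasten telomeres to the nuclear envelope, 7 of 7 were tested and 0 were called in edgeR (5 at an unadjusted p of at most 0.05, against 41.8% of all genes, 1 by DESeq2, against 13.1%, and 1 by voom, against 6.66%). All 7 had a log2 fold change above 0, as had 45.2% of all genes, with a median of 0.28 against -0.05 over all genes. Majin was at 28.7 to 34.4 CPM in wild type and 35.3 to 40.4 CPM in Rfx2-/- mice, without overlap (log2 fold change 0.28, SE 0.06, adjusted p = 0.0225), and Terb1 at 57.8 to 86.8 and 78.5 to 92.2 CPM (0.32, SE 0.10, adjusted p = 0.0521). Majin and Terb1 encode subunits of the complex that joins the telomere cap to the envelope. With wild type mice 3 and 5 left out, Majin was at 0.28 (adjusted p = 0.0493) and Terb1 at 0.20 (adjusted p = 0.191).

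Of the recombination genes, 13 of 14 listed were tested and 0 were called in edgeR. At an unadjusted p of at most 0.05, 5 of 13 passed in edgeR, against 41.8% of all genes. DESeq2 called 1, against 13.1% of all genes, and voom called 0, against 6.66%. The log2 fold change was above 0 for 8 of 13, as for 45.2% of all genes, with a median of 0.04 against -0.05 over all genes. Mlh3, a crossover endonuclease subunit, was at 80.6 to 119 CPM in wild type and 114 to 131 CPM in Rfx2-/- mice (log2 fold change 0.30, SE 0.10, adjusted p = 0.0529). Spo11, which makes the breaks that start recombination, was at 58.8 to 102 CPM and 102 to 118 CPM, just without overlap (0.40, SE 0.14, adjusted p = 0.0622). Wild type mice 3 and 5 had the lowest Spo11 and Mlh3 values of the 11 mice. Without them Spo11 was at 0.19 (adjusted p = 0.0601) and Mlh3 at 0.17 (adjusted p = 0.142).

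**Figure D5:**
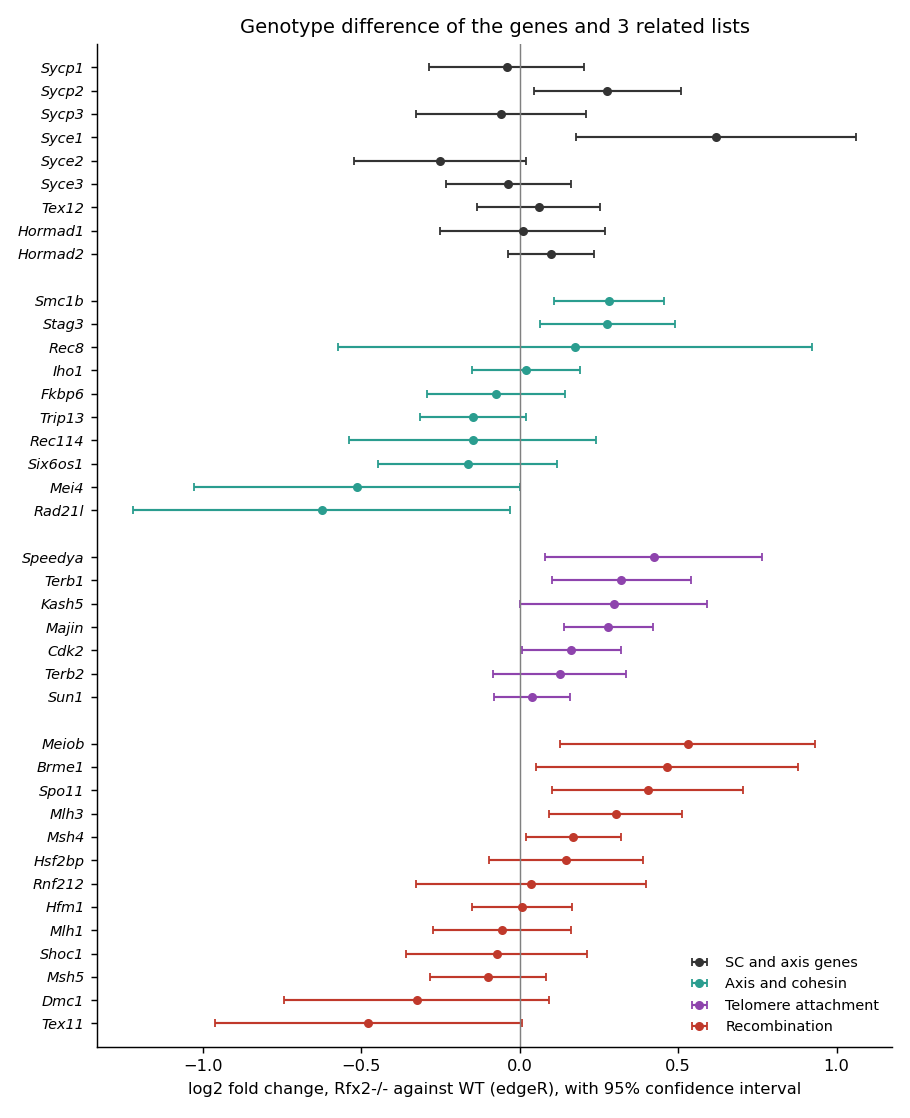
Log2 fold change of Rfx2-/- against wild type from edgeR with its 95% confidence interval (horizontal axis) for the 9 genes and the tested genes of the 3 related lists. Most intervals hold 0, all 7 telomere attachment genes lie above 0, and Syce1 has the largest value of the genes shown.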

How the data were processed

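Testis RNA of 5 wild type and 6 Rfx2-/- mice at P21 was analysed, grouped by the labels. The authors prepared TruSeq libraries, mapped single reads to GRCm38 and, per the labels and the submitters' processing notes (CASAVA 1.8.2, STAR 2.4, featureCounts 1.4.6), deposited raw counts of reads per gene of the Ensembl annotation, leaving out reads that map to several places or genes. The supplementary methods give the read length and the aligner in differing versions. Whether counting used strand is not given in the sources used here. Library totals were 22232097 to 29769483 counts, and CPM below 0.0852 to 0.139, according to the library, rest on fewer than 3 counts.

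Genotypes were compared by edgeR 4.0.16 under R 4.3.3 (filterByExpr, TMM, glmQLFit and glmQLFTest, no covariates), fitted on the whole table with Benjamini-Hochberg adjustment over the 15745 genes kept of 23074. Genes were called at an adjusted p of at most 0.01. DESeq2 1.42.0 and limma 3.58.1 (voom with sample weights), other scalings and filters, a round spermatid covariate and leaving out each mouse were the alternatives. Log2 CPM used a prior count of 2. Ratios between members were compared by two-sided exact permutation tests over all 462 splits of the mice (SciPy 1.17.1), the smallest p being 0.0043. Lengths came from GENCODE M21, which matched 22293 genes by identifier. The genes named besides the 9 members are Rfx2, the genes called in each of 3 lists or, where none was called, the 2 with the lowest p, and the 2 genes most like each member over mice. Members, lists and tests were chosen with earlier results of these data known. Each test was checked on simulated data with the same spread in both genotypes. The members varied more among wild type mice, and the check did not cover that difference. The mice are separate animals, but no label ties them to litters.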

Additional observations from a re-analysis of the deposited data

Results flagged for a closer look

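Hormad2 in wild type mouse 4 lay apart from the other wild type mice. It was at 52.4 CPM, while the other 4 were at 44.5 to 46.5 CPM, and the gap to the nearest was 0.744 of the whole wild type range, above Dixon's 95% critical value for 5 samples. It was the only such value among the 18 groups examined (9 members in 2 genotypes). By chance about 1 group in 20 passes this limit, and 1 flag in 18 groups is near that rate. The 6 Rfx2-/- mice were at 46.7 to 53.3 CPM, so the value lies inside their range. Without wild type mouse 4, the log2 fold change of Hormad2 was 0.14 (edgeR adjusted p = 0.0847), against 0.10 with it. The same mouse had the highest wild type CPM of 7 of 9 members.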

How the results depend on the processing

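No member was called under any of 21 alternatives. No paired analysis was made because no label ties a mouse of one genotype to a mouse of the other. The paper states that littermates of the same age were taken where possible, so pairs by litter may exist unrecorded. Over all genes the count of lower calls (305) was 911 with DESeq2, 682 with voom, 1382 at an adjusted p of 0.05 and 700 with the round spermatid covariate, and that of higher calls (115) was 1146, 367, 968 and 389. By more than 2-fold, 163 lower calls became 265 and 304 in the last 2 settings, and 34 higher calls became 108, 52, 90 and 83, or 21 without wild type mice 3 and 5. Leaving out 1 mouse gave 184 to 393 lower, 45 to 192 higher and 20 to 66 higher by more than 2-fold.

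Total counts as library sizes gave log2 fold changes of -0.10 for Tex12, -0.15 for Hormad1 and -0.063 for Hormad2, voom gave -0.0093 for Tex12 and -0.13 for Hormad1, and leaving out wild type mice 3 and 5 (chosen after seeing the data) gave -0.10 for Hormad1 and -0.41 for Rfx2 (adjusted p = 0.0122). With 1 mouse left out the ranges were -0.087 to 0.072 for Sycp1, -0.12 to 0.074 for Sycp3, -0.092 to 0.021 for Syce3, -0.0074 to 0.12 for Tex12, -0.052 to 0.13 for Hormad1 and -0.23 to 0.071 for Rfx2. None of these values was called.

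Against the axis and cohesin list, the log2 ratios reversed to 0.059 for Sycp1, 0.045 for Sycp3, 0.058 for Syce3, 0.15 for Tex12 and 0.11 for Hormad1, and that of Sycp2 was 0.37 but no longer passed. With Syce1 and Syce2 left out of the reference (chosen after seeing the data), Sycp1 was at -0.094 and no longer passed, and Tex12 was at 0.011. Without wild type mice 3 and 5 (chosen after seeing the data), Sycp1 was at -0.16 and Sycp2 at 0.20, where 3 against 6 mice gave an exact permutation p of 0.0238 and an adjusted p of 0.0714, and Tex12 was at 0.059. With 1 mouse left out, the ratios ranged from -0.15 to -0.10 for Sycp1 and 0.19 to 0.23 for Sycp2, which passed each time, and from -0.19 to -0.10 for Sycp3, 0.52 to 0.84 for Syce1, -0.46 to -0.23 for Syce2, -0.17 to -0.081 for Syce3, -0.083 to 0.0039 for Tex12 and -0.035 to 0.038 for Hormad2. Syce1, Syce2 and Sycp3 passed without wild type mouse 1 (adjusted p = 0.0214, 0.0343 and 0.0214) and, with Syce3, without Rfx2-/- mouse 9, and Syce3 passed without wild type mouse 3.

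Of the named genes of the lists, Majin was called with DESeq2, voom and the covariate, Smc1b and Mlh3 with DESeq2 and Terb1 without wild type mouse 4 (log2 fold change 0.42). With total counts as library sizes they were smaller, at 0.12 for Majin (edgeR adjusted p = 0.339), 0.11 for Smc1b (0.377), 0.12 for Stag3 (0.0857), 0.15 for Mlh3 (0.120), 0.17 for Terb1 (0.117) and 0.26 for Spo11 (0.0556). This setting leaves out the TMM factors, which were 0.963 to 1.18 in wild type and 0.894 to 0.994 in Rfx2-/- libraries. The median log2 fold change over all genes moved with it too, from -0.05 to -0.22. The cause of the genotype differences in these named genes was not tested. At the spread between these mice the 95% interval of a member's log2 fold change was as wide as 0.18 to 1.06 (Syce1).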

Other observations

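Other cell types of the testis were measured beside the 9 genes. Summed round spermatid markers (9 genes, among them Tnp1 and Prm1) were at 319, 70.6, 10.8, 14.1 and 6.70 CPM in wild type mice 1 to 5 and at 23.1 to 400.0 CPM in Rfx2-/- mice. Summed Leydig cell markers (6 genes) were at 131 to 319 CPM in wild type and 76.1 to 282 CPM in Rfx2-/- mice, and summed macrophage markers (5 genes) at 59.2 to 102 and 50.1 to 66.2 CPM. Summed peritubular myoid markers (5 genes) were at 242 to 490 and 270 to 387 CPM, and summed endothelial markers (4 genes) at 26.1 to 50.9 and 24.9 to 30.3 CPM. Genes of meiotic entry (6 genes) summed to 591 to 845 CPM in wild type and 845 to 1012 CPM in Rfx2-/- mice, while the median log2 fold change of these 6 genes was -0.55, opposite in sign to the sum. All 9 of these summed levels overlapped between the genotypes.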
